A study of Arabidopsis thaliana with 16 samples.

Results

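The protein-coding genes of the chloroplast genome were followed in whole Arabidopsis thaliana seedlings by RNA-seq. They were taken as the entries whose identifier begins with ATCG and whose annotated type is protein-coding. This gave 88 of the 69252 entries in each comparison table, and 88 of the 27652 protein-coding entries. Of the 3 groups used here, the dd mutant carries the drm1-2 and drm2-2 T-DNA mutations and was grown in white light. The second group was the wild-type ecotype Columbia-0 (Col-0) grown in white light with added UV-B. Col-0 grown in white light alone served as the control for both, so the dd and UV-B comparisons share 1 group. White light was given at 60 mE and UV-B at 1.5 mE and 315 nm, and seedlings on agar medium with sucrose were frozen on day 10. Each group had 2 biological replicate libraries, which the authors pooled into 1 value per gene.

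Chloroplasts keep a small genome of their own, descended from a cyanobacterium. It encodes the reaction centre proteins of both photosystems, parts of the cytochrome b6f complex, the ATP synthase and the NDH complex, the large subunit of Rubisco, many ribosomal proteins and the core of a bacterial-type RNA polymerase. That polymerase is made in the chloroplast and takes its promoter specificity from sigma factors encoded in the nucleus, while a phage-type polymerase, also encoded in the nucleus, transcribes a further set of genes. Most partner subunits of these complexes come from nuclear genes. Chloroplast messenger RNAs mostly lack the long poly(A) tail of nuclear messengers, and the libraries were made with an mRNA kit. Levels below therefore describe what such libraries captured, in FPKM, which counts fragments per length of transcript and per total of mapped fragments.

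The gene names were read from the positions of the entries. Of the 88 genes, 76 could be given 1 symbol from RefSeq, 71 of them with the same start and end. A further 8 fall in 4 ranges that 2 entries share, so their symbol is 1 of a pair, and they are called here by identifier. These are ATCG00270 and ATCG00280 (psbD or psbC), ATCG00470 and ATCG00480 (atpE or atpB), ATCG00800 and ATCG00810 (rps3 or rpl22), and ATCG01000 and ATCG01010 (ycf1 or ndhF). The remaining 4 had no symbol.

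Chloroplast messengers made up a very small part of the signal. Their summed level was 981 FPKM in dd, 788 FPKM in Col-0 under UV-B and 990.02 FPKM in Col-0 in white light. These sums were 0.109%, 0.0868% and 0.110% of the sum over all protein-coding entries in the same groups. In dd, 53 of the 88 genes reached 1 FPKM and 17 reached 10 FPKM. Under UV-B the counts were 52 and 17, and in Col-0 in white light they were 51 and 20. Genes listed at 0 numbered 24 in dd, 22 under UV-B and 16 in Col-0 in white light. In such bulk samples, fewer cells of a type and less RNA per cell cannot be told apart.

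The seedlings otherwise carried the markers of green tissue. All 3 leaf markers (LHCB1.1, CA1 and RCA) lay between 1311 and 6343 FPKM in every group, the 5 root markers were above 0 in every group, and the seed storage markers did not exceed 0.504 FPKM. The targeted DRM2, a DNA methyltransferase gene, was at 1.82 FPKM in dd and 7.09 FPKM in Col-0 (q = 0.0138 in the authors' deposited table). DRM1 was at 0.319 FPKM in dd and listed at 0 in Col-0, too low to be tested. The Col-0 values of both tables differ by a factor of 1.01, and values of all 3 groups side by side use the Col-0 column of the dd table.

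Nuclear genes for subunits of the same complexes stood far above their chloroplast partners. The 35 nuclear partner genes had a median of 2310 FPKM in dd, 2180 FPKM under UV-B and 2316 FPKM in Col-0 in white light. The 74 chloroplast genes outside the inverted repeat, which include ribosomal, polymerase and other genes, had medians of 2.48, 2.52 and 2.83 FPKM in those groups. By complex, with entries at 0 included, chloroplast medians in Col-0 in white light were 18.1 FPKM for photosystem II and 4.24 FPKM for photosystem I. They were 2.08 FPKM for cytochrome b6f, 5.91 FPKM for the ATP synthase and 0.713 FPKM for the NDH complex. Both subunits of Rubisco, the enzyme that fixes carbon dioxide, show the gap. The nuclear RBCS1A, a small subunit gene, exceeded the chloroplast rbcL 865-fold in dd, 1011-fold under UV-B and 804-fold in Col-0 in white light. In photosystem II, nuclear PSBO1, a protein of the water-splitting side, exceeded psbA 173-fold in dd, 176-fold under UV-B and 154-fold in Col-0 in white light. In photosystem I, nuclear PSAD1 exceeded psaA 917-fold in dd, 879-fold under UV-B and 874-fold in Col-0 in white light. For the ATP synthase, nuclear ATPD exceeded atpA 402-fold in dd, 478-fold under UV-B and 345-fold in Col-0 in white light. In the NDH complex, nuclear NDHL exceeded ndhJ 102-fold in dd, 205-fold under UV-B and 170-fold in Col-0 in white light. These ratios describe captured RNA in each group and carry no replicate error.

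**Figure D1:**
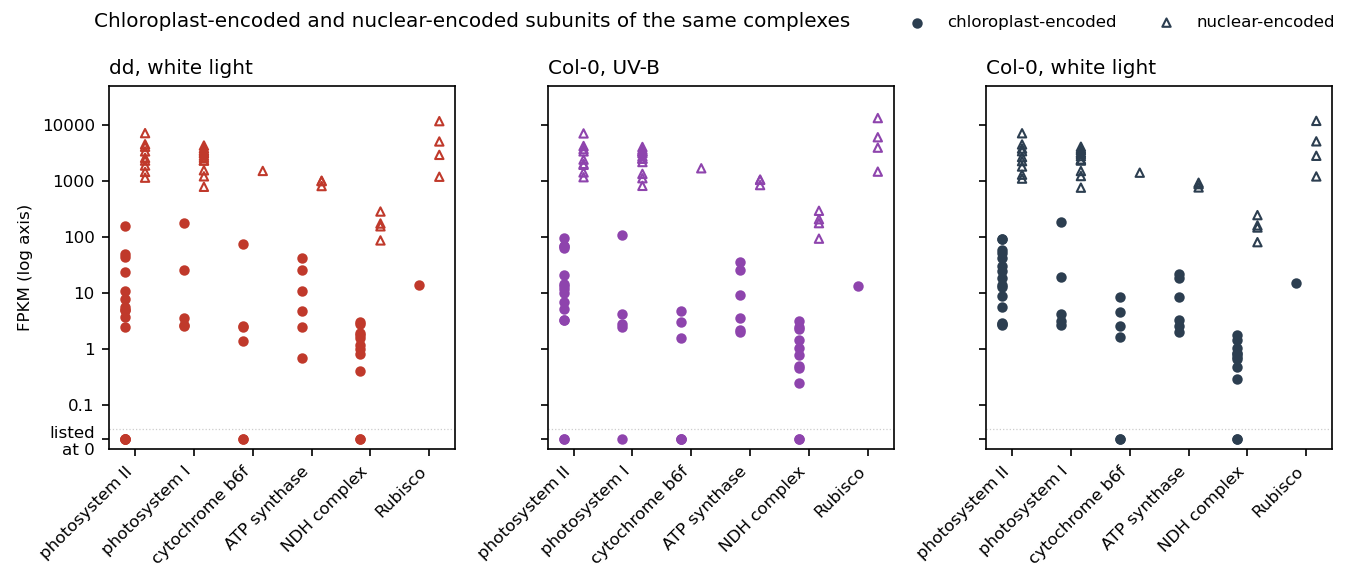
FPKM on a log axis of chloroplast-encoded (filled circles) and nuclear-encoded (open triangles) subunits of each complex, 1 pooled value per gene and group, with genes listed at 0 in a strip at the bottom. In each panel the nuclear subunits of a complex lie above its chloroplast subunits, with NDHL, NDHM, NDHN and NDHO lowest among the nuclear ones plotted.

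Position on the chloroplast genome set apart a block of entries listed at 0. The chloroplast genome holds a long inverted repeat, in which genes are present as a pair of copies. Among the 88 genes, 14 form 7 such pairs: the ribosomal protein genes rpl2, rpl23 and rps7, the NDH gene ndhB, ycf2, and 2 pairs of unnamed entries. Of these 14, 13 were listed at 0 in all 3 groups. The exception was ATCG01310, a copy of rpl2, at 0.0499 FPKM in Col-0 in white light and listed at 0 in dd and under UV-B. Of the 74 genes without a mirror copy, 2 were listed at 0 in all groups, petN and ATCG01000. Transfer RNA entries showed the same split, with 14 of 14 mirrored and 8 of 23 single-copy entries at 0 in all groups. Ribosomal RNA entries, all 8 of them mirrored, were at 0 in 4 cases. The highest was ATCG01210 with 3.01 FPKM in dd, 5.03 FPKM under UV-B and 3.86 FPKM in Col-0 in white light. How reads matching both copies were counted is not given in these sources, so the zeros of mirrored genes are not read as absence of their RNA.

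**Figure D2:**
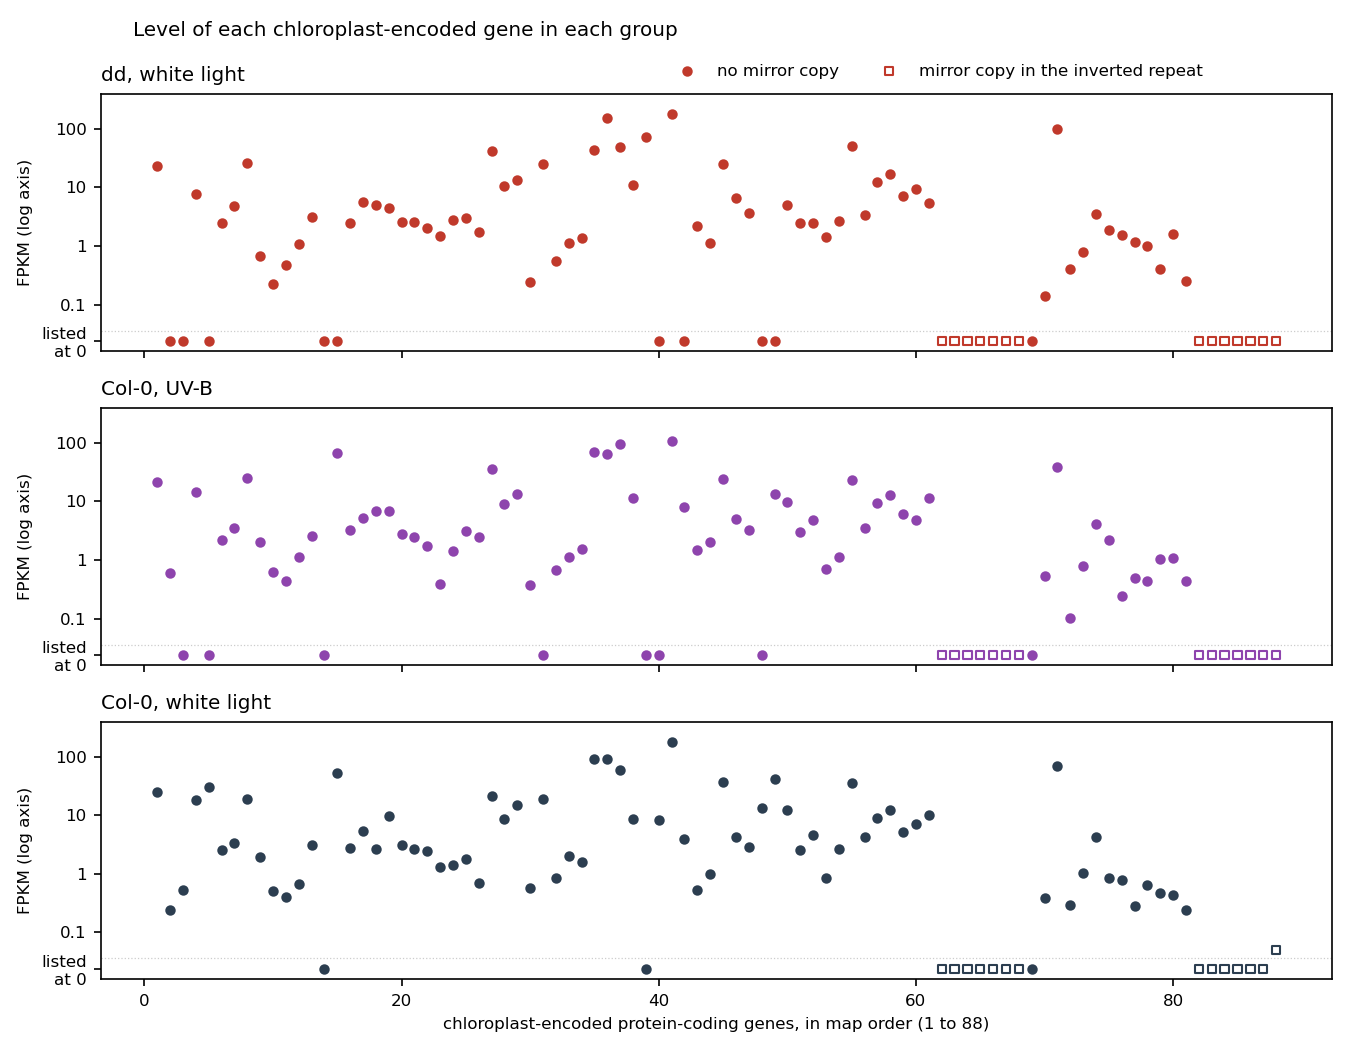
FPKM on a log axis of the 88 genes in map order, 1 panel per group and 1 pooled value per gene, with genes listed at 0 in a strip below the dotted line. Open squares mark the 14 genes with a mirror copy, 13 of them at 0 in every panel, while 2 of the 74 filled circles are at 0 in every panel.

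The highest FPKM values belonged to very short genes. All 10 of the highest chloroplast genes in Col-0 in white light were shorter than 250 bp. Across genes outside the repeat with a locus of their own and above 0, Spearman's rho between length and FPKM was -0.59 in dd (57 genes), -0.60 under UV-B (58 genes) and -0.59 in Col-0 in white light (63 genes). This is a description across genes that share their libraries. FPKM is scaled by transcript length, while the lengths used here are those of the locus range, with any introns counted. How very short lengths were scaled is not given in these sources. psbF (120 bp) and psaC (246 bp) had the same dd log2 ratio, -0.26, and the same p, 0.853, in the authors' deposited table. Yet psbF was at 48.9 FPKM in dd and 58.7 FPKM in Col-0 in white light, and psaC at 3.54 and 4.24 FPKM. Differences in FPKM between short and longer genes are therefore not read as differences in amount of RNA. The medians that follow cover genes outside the repeat with a locus of their own, those at 0 included. The 21 genes under 250 bp had medians of 7.70 FPKM in dd, 13.3 FPKM under UV-B and 18.9 FPKM in Col-0 in white light. The 23 genes from 250 bp to under 1000 bp had medians of 1.59, 1.46 and 1.31 FPKM in those groups, and the 21 genes of at least 1000 bp had 2.47, 2.48 and 2.57 FPKM. Genes under 250 bp carried 76.4% of the chloroplast sum in dd, 72.9% under UV-B and 79.7% in Col-0 in white light.

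The short genes were also the least steadily detected. Among these 21 genes under 250 bp, 7 were listed at 0 in dd, 6 under UV-B and 2 in Col-0 in white light. Among the 23 genes without a mirror copy from 250 bp to under 1000 bp, none was listed at 0 in any group. Of the 21 genes of at least 1000 bp outside the repeat with their own locus, 1 was at 0 in dd and 1 under UV-B. The 4 entries with a locus range of exactly 114 bp, rps12, psaI, petG and rpl36, show how unevenly short entries were detected. In dd they stood at 25.6, 25.6, 0 and 51.1 FPKM, so that the highest was 2 times the lowest above 0. Under UV-B they stood at 24.1, 0, 0 and 23.5 FPKM. In Col-0 in white light they stood at 36.8, 18.9, 8.42 and 35.8 FPKM. The lowest value above 0 at this length was thus 3.04 times as high in dd, and 2.81 times as high under UV-B, as in Col-0 in white light. These lowest values came from different genes: rps12 and psaI in dd, rpl36 under UV-B and petG in Col-0 in white light. Neither ratio is therefore the change of any 1 gene. Read totals are not given in these sources, so no counting interval accompanies any value.

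**Figure D3:**
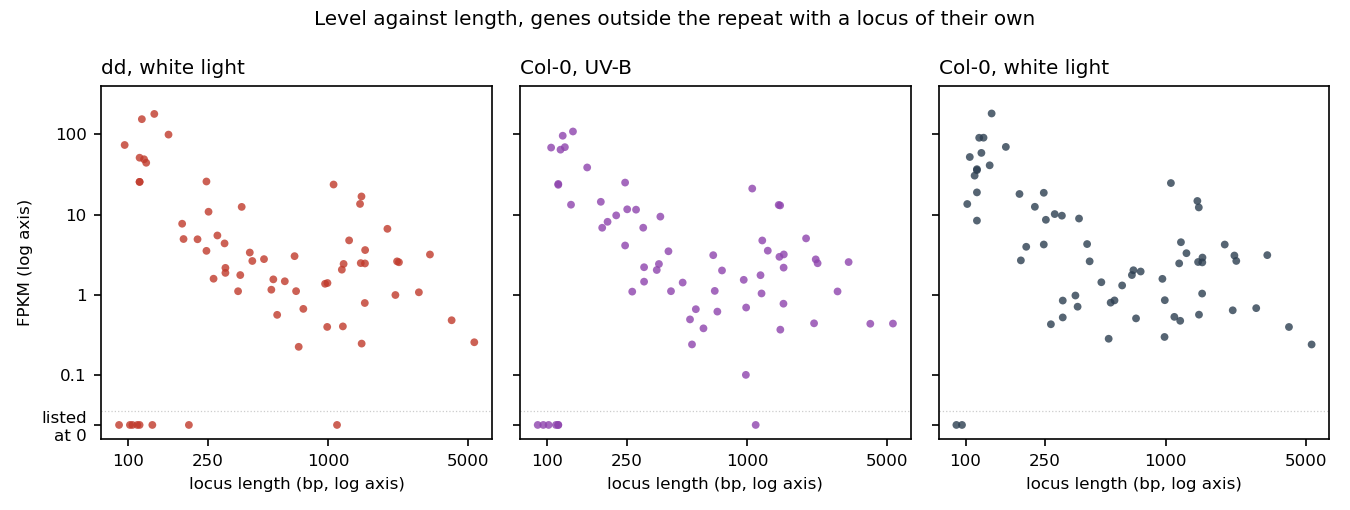
FPKM against locus length, both on log axes, for genes outside the inverted repeat with a locus of their own, 1 panel per group and 1 point per gene, with genes listed at 0 in a strip at the bottom. Points under 250 bp spread from 0 to 179.5 FPKM in dd, 109 FPKM under UV-B and 182 FPKM in Col-0 in white light, while longer genes stay at or under 24.7 FPKM in all panels.

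In the dd mutant, no chloroplast gene passed the authors' test. The question of this comparison was which transcripts depend on the DRM methyltransferases. The authors had tested 56 of the 88 genes, and 0 passed q 0.05 in the authors' deposited table, against 0.421% of all tested entries. At an unadjusted p under 0.05 there were 2 (3.57% of those tested), against 3.71% of all tested entries. Of the 63 genes above 0 in both groups, 35 were higher and 28 lower by value in dd, with a median log2 ratio of 0.09 and a range from -1.55 to 2.05. Over tested entries above 0 in both groups, the median was 0.17 for the 51 chloroplast genes and 0.00 for the other 20134. A further 10 genes were above 0 in 1 group only, 1 in dd and 9 in Col-0.

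Under UV-B, no chloroplast gene passed the test either. The comparison asked which transcripts respond to UV-B in the wild type. The authors had tested 54 of the 88 genes, and 0 passed q 0.05 in the authors' deposited table, against 3.85% of all tested entries. At an unadjusted p under 0.05 there was 1 (1.85% of those tested), against 11.7% of all tested entries. Of the 66 genes above 0 in both groups, 33 were higher and 33 lower by value under UV-B, with a median log2 ratio of 0.03 and a range from -1.76 to 1.78. Over tested entries above 0 in both groups, the median was -0.01 for the 52 chloroplast genes and 0.00 for the other 20338. Another 6 genes were above 0 in Col-0 in white light only.

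The ratio of summed levels depended on gene length. The sum over all 88 genes was 0.991 times that of Col-0 in dd and 0.803 times under UV-B. Over genes under 250 bp these ratios were 0.949 and 0.734, and over genes of at least 250 bp they were 1.15 and 1.07. The lower sum under UV-B therefore came from the short genes. Among them psaJ alone gave 179.5 FPKM in dd, 109 FPKM under UV-B and 182 FPKM in Col-0 in white light.

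Genes with a locus range of at least 1000 bp varied least between groups by median absolute log2 ratio. Such a range counts any introns, so the transcript can be shorter. The 13 genes of at least 1000 bp with their own locus that reached 2 FPKM in at least one of the groups ranged from -0.90 to 0.65 on the log2 scale for dd over Col-0, with a median absolute log2 ratio of 0.24. For UV-B over Col-0 the 13 genes chosen in the same way ranged from -0.48 to 0.27, with a median absolute log2 ratio of 0.15. With the same minimum of 2 FPKM, genes under 250 bp had median absolute log2 ratios of 0.52 for dd (13 genes) and 0.59 for UV-B (15 genes). Those from 250 bp to under 1000 bp had 0.82 for dd (10 genes) and 0.66 for UV-B (12 genes).

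**Figure D4:**
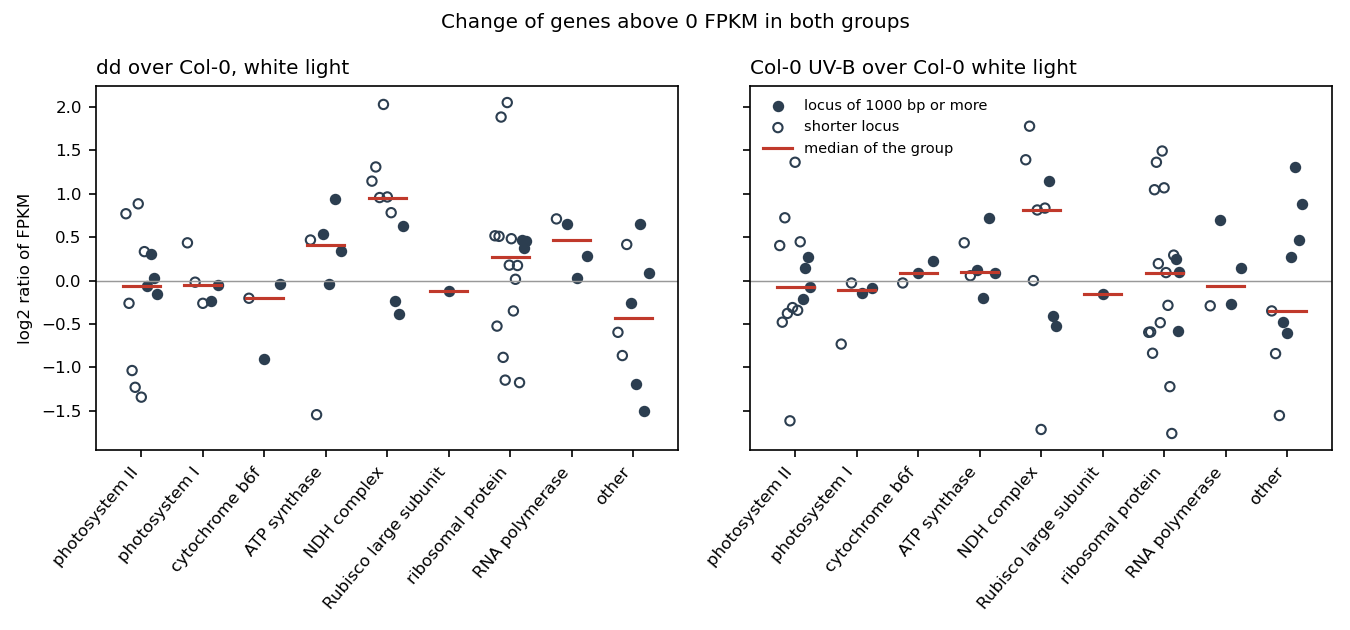
Log2 ratio of FPKM in dd over Col-0 (left) and in UV-B over white light (right) for chloroplast genes above 0 in both groups, by role, 1 point per gene, filled where the locus is 1000 bp or longer, with a bar at the median of each role. The NDH genes have the highest median of any role in both panels, 0.96 for dd and 0.81 for UV-B. They are low genes, of which the authors tested 6 in each comparison. Of the points the authors tested, none passed.

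Photosystem II takes electrons from water, and 15 of the chloroplast genes encode its subunits. Its 11 genes above 0 in both dd and Col-0 were 5 higher and 6 lower by value in dd, with a median log2 ratio of -0.06. Its 13 genes above 0 in both UV-B and white light were 6 higher and 7 lower, with a median of -0.08. psbA, which encodes the D1 reaction centre protein that light damages and that is continually replaced, was at 23.7 FPKM in dd, 21.1 FPKM under UV-B and 24.7 FPKM in Col-0 in white light. It was the highest of the genes over 250 bp with their own locus in Col-0, and its 3 values lay close together. ATCG00270 was at 2.47 FPKM in dd, 3.28 FPKM under UV-B and 2.75 FPKM in Col-0 in white light. ATCG00280, from the same range, was at 5.57, 5.12 and 5.45 FPKM in these groups. One of this pair is psbD, for the D2 reaction centre protein, and the other psbC, for an inner antenna protein. psbB, for the other inner antenna protein, was at 3.62 FPKM in dd, 3.19 FPKM under UV-B and 2.92 FPKM in Col-0 in white light.

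The neighbouring genes psbE, psbF, psbL and psbJ encode small photosystem II subunits, the first pair forming its cytochrome. They lie side by side on chloroplast positions 63538 to 64322 of TAIR10. psbJ was at 44.2 FPKM in dd, 69.2 FPKM under UV-B and 90.8 FPKM in Col-0 in white light, the highest photosystem II gene in Col-0. psbL was at 155 FPKM in dd, 64.4 FPKM under UV-B and 90.6 FPKM in Col-0 in white light. Adjacent short genes thus took opposite places, as psbL had its highest and psbJ its lowest value in dd. psbF was at 48.9 FPKM in dd, 96.1 FPKM under UV-B and 58.7 FPKM in Col-0 in white light. psbE, the longest of the 4 at 252 bp, was at 10.9 FPKM in dd, 11.6 FPKM under UV-B and 8.62 FPKM in Col-0 in white light. On the log2 scale the dd ratios of psbJ, psbL, psbF and psbE were -1.04, 0.77, -0.26 and 0.33, and the UV-B ratios were -0.38, -0.48, 0.72 and 0.45. None of the 8 ratios passed the authors' test.

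Other small photosystem II genes gave the widest ratios of the complex. psbN, needed to assemble photosystem II, was listed at 0 in dd, against 41.1 FPKM in Col-0 (p = 0.0139 and q = 0.808 in the authors' deposited table). Under UV-B it was at 13.3 FPKM, against 40.8 FPKM in white light, a log2 ratio of -1.62 (q = 0.883 in the authors' deposited table). psbN lies at positions 74249 to 74380, between psbT and psbH. psbT was listed at 0 in dd and under UV-B, against 13.6 FPKM in Col-0 in white light. psbH was at 4.93 FPKM in dd, 9.78 FPKM under UV-B and 12.5 FPKM in Col-0 in white light. All 3 of these neighbours were highest in Col-0 in white light. psbK was at 7.70 FPKM in dd, 14.4 FPKM under UV-B and 18.1 FPKM in Col-0 in white light. psbI, its neighbour, was listed at 0 in dd and under UV-B, against 30.6 FPKM in Col-0 in white light. psbZ, in contrast, was lowest in Col-0, with 4.97 FPKM in dd, 6.86 FPKM under UV-B and 2.69 FPKM in Col-0 in white light. psbM was listed at 0 in dd, and stood at 68.4 FPKM under UV-B and 52.2 FPKM in Col-0 in white light.

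Photosystem I, which reduces ferredoxin, has 5 chloroplast genes, of which 1 was higher and 4 lower by value in dd (median log2 ratio -0.05). Under UV-B all 4 genes above 0 in both groups were lower by value (median -0.11), and none passed the test. psaA and psaB encode the reaction centre pair. psaA was at 2.55 FPKM in dd, 2.48 FPKM under UV-B and 2.65 FPKM in Col-0 in white light. psaB was at 2.62 FPKM in dd, 2.77 FPKM under UV-B and 3.09 FPKM in Col-0 in white light. Values of both genes in all groups fell within a narrow band. psaC, for the iron-sulfur protein that hands electrons to ferredoxin, was at 3.54 FPKM in dd, 4.12 FPKM under UV-B and 4.24 FPKM in Col-0 in white light. psaJ, a gene of 135 bp for a small subunit, had the highest FPKM of any chloroplast gene in all 3 groups. Its UV-B ratio of -0.73 on the log2 scale had q = 0.780 in the authors' deposited table. psaI was at 25.6 FPKM in dd, listed at 0 under UV-B, and at 18.9 FPKM in Col-0 in white light.

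The cytochrome b6f complex passes electrons between the photosystems and has 6 chloroplast genes. The 3 large ones were lower by value in dd (median log2 ratio -0.20), and under UV-B 2 were higher and 1 lower (median 0.08). petA, for cytochrome f, was at 1.38 FPKM in dd, 1.54 FPKM under UV-B and 1.58 FPKM in Col-0 in white light. petB, for cytochrome b6, was at 2.49 FPKM in dd, 2.98 FPKM under UV-B and 2.57 FPKM in Col-0 in white light. petD, for subunit IV, was at 2.43 FPKM in dd, 4.76 FPKM under UV-B and 4.53 FPKM in Col-0 in white light. Only petD stood apart among these, with a dd log2 ratio of -0.90 (q = 0.999 in the authors' deposited table). The 3 small ones were mostly at 0. petL was at 73.7 FPKM in dd and listed at 0 in Col-0 under both lights (p = 0.0709 for dd in the authors' deposited table), and it was the only chloroplast gene above 0 in dd but not in Col-0 in white light. petG was listed at 0 in dd and under UV-B, against 8.42 FPKM in Col-0 in white light.

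The chloroplast ATP synthase makes ATP from the proton gradient, and its 6 chloroplast genes included the gene with the smallest p in both comparisons. ATCG00470, which is atpE or atpB, the genes for the epsilon and beta subunits, was at 41.4 FPKM in dd, 35.2 FPKM under UV-B and 21.5 FPKM in Col-0 in white light. It was the highest ATP synthase gene in every group. Its dd ratio was 0.94 on the log2 scale (p = 0.0061 and q = 0.502 in the authors' deposited table). Its UV-B ratio was 0.72 on the log2 scale (p = 0.0379 and q = 0.365 in the authors' deposited table). Both ratios use the same Col-0 libraries. ATCG00480, the other entry of the range at positions 52265 to 54156, was at 10.8 FPKM in dd, 8.99 FPKM under UV-B and 8.52 FPKM in Col-0 in white light, so the order of the groups was the same and the ratios were smaller (0.34 and 0.09 on the log2 scale). FPKM of overlapping entries is uncertain, since fragments from the shared part can be split between them.

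The other 4 ATP synthase genes lie in a cluster at positions 9938 to 14770. atpH, for the membrane ring subunit, was at 25.9 FPKM in dd, 25.1 FPKM under UV-B and 18.7 FPKM in Col-0 in white light. atpF was at 4.78 FPKM in dd, 3.56 FPKM under UV-B and 3.31 FPKM in Col-0 in white light. atpA, for the alpha subunit, was at 2.47 FPKM in dd, 2.19 FPKM under UV-B and 2.54 FPKM in Col-0 in white light. In this cluster atpH, the shortest gene, had the highest FPKM in every group. Its ratio to atpA was 10.5 in dd, 11.5 under UV-B and 7.36 in Col-0 in white light. atpI was at 0.670 FPKM in dd, 2.02 FPKM under UV-B and 1.96 FPKM in Col-0 in white light. Its dd ratio, -1.55 on the log2 scale, was the lowest of any chloroplast gene above 0 in both groups (p = 0.0839 and q = 0.999 in the authors' deposited table). atpH over atpI was accordingly 38.6 in dd, 12.4 under UV-B and 9.56 in Col-0 in white light.

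The NDH complex, a chloroplast relative of respiratory complex I that cycles electrons around photosystem I, has 11 entries here, among them both copies of ndhB. The other 9 were all detected at low levels. In dd, 7 were higher and 2 lower by value, with a median log2 ratio of 0.96. Under UV-B, 5 were higher and 4 lower, with a median of 0.81, which is the ratio of ndhI, a gene not tested there. ATCG01010, which is ycf1 or ndhF, is not counted in this role. Its log2 ratios were -1.50 for dd and 0.46 for UV-B, both untested. The authors had tested 6 of the 11 in each comparison, 0 passed q 0.05 in the authors' deposited table, and no level exceeded 3.12 FPKM. ndhK, the highest in Col-0, was at 3.04 FPKM in dd, 3.12 FPKM under UV-B and 1.77 FPKM in Col-0 in white light. Its neighbour ndhJ was at 2.79 FPKM in dd, 1.42 FPKM under UV-B and 1.44 FPKM in Col-0 in white light. ndhC, next to them, was at 1.77 FPKM in dd, 2.43 FPKM under UV-B and 0.713 FPKM in Col-0 in white light. These 3 genes, which lie side by side, were all higher by value in dd, and ndhK and ndhC also under UV-B. ndhE was at 1.88 FPKM in dd, 2.21 FPKM under UV-B and 0.850 FPKM in Col-0 in white light. ndhI was at 1.16 FPKM in dd, 0.495 FPKM under UV-B and 0.284 FPKM in Col-0 in white light. ndhG was at 1.56 FPKM in dd, 0.242 FPKM under UV-B and 0.801 FPKM in Col-0 in white light, so its ratios pointed opposite ways. The longer ndhA, ndhD and ndhH did not share 1 direction either, with log2 ratios of 0.63, -0.39 and -0.23 in dd and of -0.53, -0.41 and 1.14 under UV-B.

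rbcL, for the large subunit of Rubisco, was at 13.6 FPKM in dd, 13.2 FPKM under UV-B and 14.8 FPKM in Col-0 in white light. Its log2 ratios were -0.12 for dd (p = 0.533 in the authors' deposited table) and -0.15 for UV-B (p = 0.421 in the authors' deposited table). A p that misses the threshold does not show that the levels are equal.

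Ribosomal protein genes formed the largest role, with 24 entries, 6 of them mirrored. In dd, 11 were higher and 5 lower by value (median log2 ratio 0.28), and under UV-B 9 were higher and 8 lower (median 0.09). The median level of the role was 1.88 FPKM in dd, 1.75 FPKM under UV-B and 1.97 FPKM in Col-0 in white light. rpl32, the highest, was at 99.2 FPKM in dd, 38.7 FPKM under UV-B and 69.7 FPKM in Col-0 in white light. It was thus above Col-0 in dd and below it under UV-B. The run of ribosomal genes at positions 78960 to 84283 held several longer members. rpl16 was at 16.8 FPKM in dd, 13.0 FPKM under UV-B and 12.3 FPKM in Col-0 in white light. rpl14, beside it, was at 12.5 FPKM in dd, 9.44 FPKM under UV-B and 8.94 FPKM in Col-0 in white light. The ratio of rpl16 to rpl14 was nearly constant, at 1.35 in dd, 1.38 under UV-B and 1.38 in Col-0 in white light. ATCG00800 was at 7.08 FPKM in dd, 6.03 FPKM under UV-B and 5.13 FPKM in Col-0 in white light, while ATCG00810 of the same range was at 9.34, 4.78 and 7.21 FPKM in these groups. rps19, at the end of the run, was at 5.50 FPKM in dd, 11.5 FPKM under UV-B and 10.2 FPKM in Col-0 in white light. It was lowest in dd, where rpl16 and rpl14 were highest.

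Further ribosomal genes spread widely at low levels. rps14 was at 4.38 FPKM in dd, 6.87 FPKM under UV-B and 9.70 FPKM in Col-0 in white light. rps18 was at 2.17 FPKM in dd, 1.46 FPKM under UV-B and 0.524 FPKM in Col-0 in white light, and its dd log2 ratio of 2.05 was the highest of any chloroplast gene (q = 0.999 in the authors' deposited table). rps4 was at 1.48 FPKM in dd, 0.383 FPKM under UV-B and 1.31 FPKM in Col-0 in white light, giving the lowest UV-B ratio, -1.76 on the log2 scale (q = 0.722 in the authors' deposited table). Each of these extremes belonged to a gene below 1 FPKM in 1 of the groups compared. rpl33 was listed at 0 in dd, and stood at 8.14 FPKM under UV-B and 3.98 FPKM in Col-0 in white light.

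The 4 genes of the chloroplast-encoded RNA polymerase were all higher by value in dd (median log2 ratio 0.47), though rpoB by only 0.03. Under UV-B 2 were higher and 2 lower (median -0.06). The authors had tested 3 of them in dd and 2 under UV-B, and 0 passed q 0.05 in either of the authors' deposited tables. rpoB, for the beta subunit and the highest of them, was at 3.19 FPKM in dd, 2.57 FPKM under UV-B and 3.13 FPKM in Col-0 in white light. rpoC1 was at 1.08 FPKM in dd, 1.104 FPKM under UV-B and 0.684 FPKM in Col-0 in white light. rpoC2 was at 0.483 FPKM in dd, 0.437 FPKM under UV-B and 0.398 FPKM in Col-0 in white light. Levels thus stepped down by value from rpoB through rpoC1 to rpoC2, which is the order in which their operon is transcribed. The authors had not tested rpoC2 in either comparison, and whether the step relates to that order was not tested. The ratio of rpoB to rpoC2 was 6.59 in dd, 5.87 under UV-B and 7.85 in Col-0 in white light. rpoA, for the alpha subunit, lies apart in the ribosomal region and was at 1.41 FPKM in dd, 0.696 FPKM under UV-B and 0.859 FPKM in Col-0 in white light.

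The nuclear genes that serve this polymerase and its transcripts were measured between 2.46 and 643 FPKM and gave 1 call, under UV-B. Over all tested entries, 0.421% were called in dd and 3.85% under UV-B. Of the 6 sigma factors, 0 passed the test in dd (median log2 ratio 0.02), and 1 rose under UV-B (median 0.18). SIG5, a sigma factor known to be induced by blue light and stress and to drive transcription of psbD, rose to 45.3 FPKM under UV-B, against 28.3 FPKM in white light, a log2 ratio of 0.68 (q = 0.00458 in the authors' deposited table). In dd, SIG5 was at 27.9 FPKM, against 28.5 FPKM in Col-0. The entries of the psbD range beside it had UV-B log2 ratios of 0.27 for ATCG00270 and -0.08 for ATCG00280, with q = 0.988 and q = 0.998 in the authors' deposited table. SIG1 was at 88.2 FPKM under UV-B, against 64.6 FPKM in white light (q = 0.0714 in the authors' deposited table).

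Of the 12 proteins associated with the chloroplast polymerase, 0 passed the test in either comparison, with median log2 ratios of -0.02 for both dd and UV-B. The 2 nuclear-encoded phage-type polymerases, RPOTp and RPOTmp, likewise gave 0 calls, with log2 ratios of -0.01 and -0.09 in dd and -0.07 and -0.12 under UV-B. Among 10 nuclear genes for chloroplast RNA maturation and decay, 0 passed the test. All 10 were higher by value under UV-B (median log2 ratio 0.22), led by CSP41B, an RNA-binding protein, at 643 FPKM under UV-B and 474 FPKM in white light (q = 0.0844 in the authors' deposited table). In dd, 8 of the 10 were higher by value, with a median of 0.04.

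Among the 35 nuclear partner genes, 0 passed the test in dd and 1 under UV-B. Over all tested entries the shares called were 0.421% and 3.85%, so the 1 call does not exceed the share under UV-B. In dd 27 of them were higher by value (median log2 ratio 0.04), and under UV-B 23 (median 0.08). RBCS2B, a Rubisco small subunit gene, rose to 3946 FPKM under UV-B, against 2797 FPKM in white light, a log2 ratio of 0.50 (q = 0.0187 in the authors' deposited table). The small subunit genes are close copies that can share reads, so the value of each is uncertain. rbcL, which encodes the large subunit of the same enzyme, had a UV-B log2 ratio of -0.15, and whether the ratios of RBCS2B and rbcL differ was not tested. Of the marker genes, 1 was called under UV-B, the root nitrate transporter NRT2.1, at 2.38 FPKM under UV-B and 0.355 FPKM in white light (q = 0.00648 in the authors' deposited table). The summed root markers were 98.1 FPKM in dd, 71.7 FPKM under UV-B and 87.8 FPKM in Col-0 in white light, and IRT1, an iron transporter gene, gave most of it, with 79.8, 45.6 and 64.0 FPKM in these groups. By value 1 of the 5 root markers, IRT1, was higher in dd (median log2 ratio -0.33 over the 4 the authors had tested), and 2 were higher under UV-B, EXPA7 and NRT2.1 (median 0.00). Their part in the chloroplast values was not tested.

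The remaining 16 entries include enzymes and assembly factors of the chloroplast. clpP, the catalytic subunit of a protease, was the highest at 6.66 FPKM in dd, 5.06 FPKM under UV-B and 4.24 FPKM in Col-0 in white light. accD, for a subunit of acetyl-CoA carboxylase in fatty acid synthesis, was at 0.247 FPKM in dd, 0.369 FPKM under UV-B and 0.567 FPKM in Col-0 in white light. Both are known targets of the phage-type polymerase, and their groups were ordered in opposite ways by value. The authors had not tested accD in either comparison, and clpP had q = 0.999 for dd and q = 0.988 for UV-B in the authors' deposited tables. ycf1, for a component of the protein import machinery, was at 0.257 FPKM in dd, 0.439 FPKM under UV-B and 0.241 FPKM in Col-0 in white light. ATCG01010, which is ycf1 or ndhF, was at 0.138 FPKM in dd, 0.536 FPKM under UV-B and 0.393 FPKM in Col-0 in white light, while ATCG01000 of the same range was listed at 0. ycf3, a photosystem I assembly factor, was at 2.06 FPKM in dd, 1.76 FPKM under UV-B and 2.47 FPKM in Col-0 in white light. cemA, for an envelope membrane protein, was at 1.11 FPKM in dd, 1.12 FPKM under UV-B and 2.03 FPKM in Col-0 in white light. Of the 8 genes in this role above 0 in both dd and Col-0, 3 were higher and 5 lower by value (median log2 ratio -0.43). Of the 9 above 0 in both UV-B and white light, 4 were higher and 5 lower (median -0.35).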

How the data were processed

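The deposited tables list 1 FPKM value per group, made by the authors from 2 replicate RNA-seq libraries each. The p-values and q-values deposited by the authors, per the file headers, compare the groups, and entries they left untested stay untested. Tools listed in the submitters' processing notes are HISAT2, Cufflinks, Trimmomatic and BSMAP, with the build TAIR10 and no versions. Per the labels' protocols a stranded mRNA kit was used; the use of strand in counting is not given in these sources. With no value per library, no test beyond the authors' own was run, and depth is unknown.

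Log2 ratios were computed with no pseudocount for genes above 0 in both groups, with Python 3.11.15, numpy 2.4.6 and pandas 2.3.3. The deposited fold column runs the other way and was not used. Coordinates are TAIR10 locus ranges, written 1-based, and gene lengths are those of these ranges, with any introns counted. Symbols came from the RefSeq table of TAIR10.1, by overlap with a single plastid gene. A mirror copy is an entry of equal length at the mirrored place of the inverted repeat.

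Members, roles and gene lists were chosen with earlier results of these data known. Named were 12 genes chosen by function, the 5 highest and 5 lowest ratios per comparison among genes with at least 5 FPKM in the higher group, the highest gene of each role in Col-0, listed nuclear genes past q 0.05, and SIG5. Every other gene was picked with its values in view. Counting was tested on simulated tables with known answers. Both dd libraries with UV-B and all 8 bisulfite libraries were not analysed here.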

Additional observations from a re-analysis of the deposited data

How the results depend on the processing

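No chloroplast gene was called in either comparison at q under 0.05 or 0.01, with a log2 change of at least 1 added, with at least 5 FPKM in the higher group, or without mirrored genes; at an unadjusted p under 0.05, 2 were called for dd and 1 for UV-B in the authors' deposited tables. The dd median log2 ratio of 0.092 became -0.019 with 1 FPKM added to both groups, 0.34 for genes of at least 5 FPKM, 0.17 for tested genes only and 0.025 for genes of at least 1000 bp. The UV-B median of 0.027 became -0.041 with 1 FPKM added, -0.076 for genes of at least 5 FPKM, -0.029 without overlapping loci, 0.089 for genes of at least 250 bp and 0.092 for genes of at least 1000 bp. Both medians thus took either sign, and the cause was not tested. Centring on other protein-coding genes or leaving out mirrored genes moved neither by over 0.05. Without psaJ the summed FPKM were 801 in dd, 679.7 under UV-B and 808 in Col-0 in white light, and over genes of at least 250 bp 232, 214 and 201. The settings on length and on tested genes were chosen after seeing the data. Length there is that of the locus range, and entries that share a range were kept. No paired analysis was possible because the tables hold 1 pooled value per group, and for the same reason no replicate could be left out. Read totals are not known here, so what depth limits could not be measured.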

Other observations

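Other RNAs of the organelles were measured in the same tables. The 122 mitochondrial protein-coding entries summed to 28.0 FPKM in dd, 24.8 FPKM under UV-B and 22.8 FPKM in Col-0 in white light, and 79 of them were listed at 0 in all 3 groups. The authors had tested 8 of them in each comparison, and 0 had q under 0.05 in the authors' deposited tables (at an unadjusted p under 0.05 there was 1 for dd and 0 for UV-B). The 37 chloroplast transfer RNA entries summed to 747 FPKM in dd, 688 FPKM under UV-B and 937 FPKM in Col-0 in white light. Of these, 30 were listed at 0 in dd, 29 under UV-B and 24 in Col-0 in white light. The 8 chloroplast ribosomal RNA entries summed to 5.05 FPKM in dd, 7.65 FPKM under UV-B and 5.70 FPKM in Col-0 in white light. ATCG00920, the mirror copy of ATCG01210, was at 1.07 FPKM in dd, 1.51 FPKM under UV-B and 1.03 FPKM in Col-0 in white light, in each group below its partner.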
